A study of Mus musculus with 10 samples.

Results

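The genes described here are a set of 7 podocyte genes, Nphs1, Podxl, Synpo, Clic5, Ptpro, Magi2 and Wt1, taken by exact gene symbol from the platform annotation of a mouse expression array. Of the 7, 6 had at least 1 named probe set, a group of short probes read out as one intensity. They had 12 probe sets in all, out of 45101 on the array. No probe set carried the symbol Magi2 alone, and this gene is not analysed here. RNA came from urogenital systems of mouse embryos at embryonic day 15.5, dissected whole. Kidney, gonads, ducts, adrenal glands and bladder can thus lie in one sample, in shares that were not measured. There were 10 arrays, 5 for each genotype, and each array held RNA pooled from 1 to 2 urogenital systems.

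Embryos of the first group carried Wnt9b cneo/cneo and are called homozygous below. The comparison group is called control here. By its genotype label (Wnt9b cneo/+) it would carry 1 cneo allele, whereas sample titles name it wild type, and both readings are kept. The labels name no treatment or strain. What the cneo allele does to the transcript is not given in the sources used here. Wnt9b is a Wnt ligand secreted by the Wolffian duct and ureteric bud that the neighbouring mesenchyme needs to form nephrons. The comparison asks whether transcripts of the glomerular podocyte differ when both alleles are cneo.

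Podocytes are the epithelial cells that wrap the capillaries of the glomerulus. They form at the proximal end of each new nephron and extend interlocking foot processes, which are joined by a cell junction called the slit diaphragm. Filtration of plasma depends on this junction, on a negatively charged apical coat, and on an actin cytoskeleton that holds the foot processes in shape. The transcription factor Wt1 is needed first for kidney formation and later in podocytes, where it stays high.

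Promoter sequence is shown for 3 of the measured genes, because Wt1 is a DNA-binding regulator and the other genes here are expressed in the cell type that keeps it. RefSeq start sites were found for 4 of the 7 genes in the table used (build GRCm38.p6). Each line gives the 250 bases before an annotated start on the plus strand, 5′ to 3′. Capitals mark GTGGGAG, the core letters of the Wt1 zinc finger motif, which was searched on both strands (reverse complement CTCCCAC).
Ptpro, chr6:137252049-137252298: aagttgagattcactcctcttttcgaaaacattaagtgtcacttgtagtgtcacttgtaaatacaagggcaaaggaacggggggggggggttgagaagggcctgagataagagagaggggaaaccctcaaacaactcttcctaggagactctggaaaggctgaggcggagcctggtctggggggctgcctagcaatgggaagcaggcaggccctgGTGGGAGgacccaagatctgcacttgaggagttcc
Nphs1, chr7:30459808-30460057: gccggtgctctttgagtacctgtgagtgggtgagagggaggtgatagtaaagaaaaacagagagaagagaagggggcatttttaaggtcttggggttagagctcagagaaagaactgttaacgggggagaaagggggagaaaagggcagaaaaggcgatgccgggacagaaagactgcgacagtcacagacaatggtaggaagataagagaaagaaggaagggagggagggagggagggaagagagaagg
Clic5, chr17:44188322-44188571: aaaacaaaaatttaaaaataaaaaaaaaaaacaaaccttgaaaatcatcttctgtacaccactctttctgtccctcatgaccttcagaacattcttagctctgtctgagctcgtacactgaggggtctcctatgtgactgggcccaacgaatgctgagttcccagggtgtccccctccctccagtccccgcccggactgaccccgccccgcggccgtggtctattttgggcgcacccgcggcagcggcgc
The Ptpro window held 1 match, which began 35 bases before the start. The Nphs1 and Clic5 windows held none. Of 32851 windows of this length, 8.25% held the 7 letters, so a match is a description of the sequence and says nothing about binding.

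Intensities had been scaled by the authors so that the trimmed mean of every array was 500. Values below a floor of 16 were set to 16 before log2. On 2 arrays, homozygous 5 and control 1, the 3′ to middle ratio of actin probe sets, a measure of RNA integrity, was 97.7 and 94.8, against 9.87 to 33.1 on the other 8. The X-inactivation transcript Xist was high on homozygous arrays 3, 4 and 5 and on no control array. Its log2 intensity was 13.8 to 14.3 on these 3 and 5.13 to 6.07 on all others. Xist is a transcript of female cells, so pool sex and genotype are partly confounded and cannot be fully told apart. For each gene, the difference without the arrays of high actin ratio or of high Xist is given below where it moved by over 1.5 times. The brighter probe set of Wnt9b ran from 47.8 to 201 in homozygous pools and from 121 to 143 in controls. Its log2 difference was -0.23 ± 0.36 (SE, n = 5 per group; adjusted p = 0.803, limma), so it cannot check the labels. With several organs in a sample, fewer podocytes, less RNA per podocyte and a smaller share of kidney RNA in the pool cannot be told apart. The mean log2 intensity of 11 gonadal genes ran from 5.56 to 9.26 over control pools. Over homozygous pools it ran from 7.78 to 9.65, and whether organ content differed between pools was not tested. All 15 neuronal and chromaffin genes and all 16 muscle genes measured had a higher mean in homozygous pools. Their median log2 differences were 3.07 and 1.73, against 0.00 over all genes. What this does to the podocyte values on scaled arrays was not tested. The number of arrays limits the precision.

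All 6 measured genes had a lower mean in homozygous pools, and none of the 6 passed the test over all genes. Across the array, 46.1% of 18193 genes had a lower mean. The median log2 difference of the 6 was -0.55, against 0.00 over all genes. It was -0.26, with 5 of the 6 lower, when the 3 Xist-high pools were left out, and -0.45, with all 6 lower, when the arrays of high actin ratio were. The test was limma, with p adjusted by the Benjamini-Hochberg method over all genes and a threshold of 0.05, which 0.967% of genes passed. At an unadjusted p under 0.05 there were 2 of the 6, Clic5 and Podxl, compared with 15.7% of all genes. In 1 of the 6, Clic5, every homozygous array lay below every control array, as did 2.1% of all genes.

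**Figure D1:**
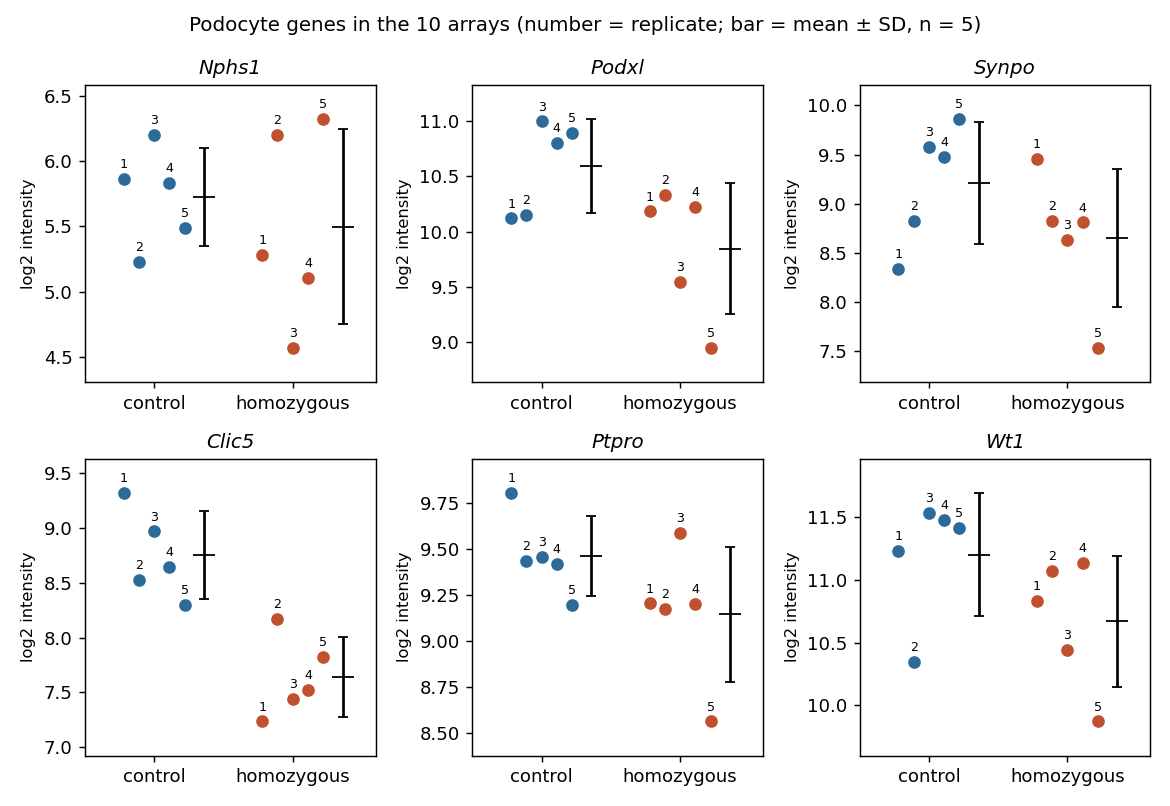
The log2 intensity of the brightest probe set of each gene is plotted for the 5 control arrays (blue) and the 5 homozygous arrays (red), with the replicate number above each point and the mean ± SD beside each group. The groups are separate for Clic5 alone, and homozygous array 5 is the lowest of all for Podxl, Synpo, Ptpro and Wt1.

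Nphs1 encodes nephrin, the immunoglobulin-family adhesion protein that spans the slit diaphragm. Its single probe set, 1422142_at, was dim, with linear intensities of 38.8, 73.6, 23.8, 34.5 and 80.0 in homozygous pools 1 to 5. Control pools 1 to 5 had 58.1, 37.5, 73.6, 57.1 and 44.8. The homozygous pools thus held both the lowest and the highest value of the 10, and the groups overlapped throughout. The mean log2 intensity was 5.50 ± 0.75 (SD, n = 5) in homozygous and 5.72 ± 0.37 (SD, n = 5) in control pools. The difference of -0.23 ± 0.36 (SE) did not pass (adjusted p = 0.80, limma), and its exact two-sided permutation p was 0.579. The 95% interval for the homozygous level ran from 48.9% to 149% of control, which spans both a level near 50% of control and a higher level than control. The difference was 0.018 without the 3 Xist-high pools and -0.40 without the arrays of high actin ratio, and neither passed.

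Podxl encodes podocalyxin, the sialylated mucin that gives the apical surface of podocytes its charge, and it is also made by endothelial cells. Probe set 1448688_at read 1162, 1290.1, 746, 1195 and 494 in homozygous pools 1 to 5. It read 1112, 1137, 2044, 1786 and 1907 in control pools 1 to 5. Control pools 3, 4 and 5 were above every homozygous pool, while control pools 1 and 2 fell within the homozygous range. Mean log2 intensity was 9.85 ± 0.59 (SD, n = 5) against 10.59 ± 0.42 (SD, n = 5). The difference of -0.75 ± 0.31 (SE) corresponds to 59.6% of the control level, with a 95% interval of 36.8% to 96.4%. It did not pass over all genes (adjusted p = 0.282, limma; exact permutation p = 0.0794).

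A second Podxl probe set, 1417396_at was close to background. All 5 homozygous arrays were under the floor, with values from 3.98 to 9.94. Among controls only array 1 was under it, at 13.4, and the other 4 ran from 20.8 to 37.0. Because the whole homozygous group lay under the floor, the fitted difference depends on the floor: it was -0.75 with a floor of 16, -0.07 with a floor of 32 and -1.77 with a floor of 1. None of these passed over 45037 probe sets, of which 0.231% passed as reported (adjusted p = 0.211, 0.587 and 0.0933, limma). Of 14 endothelial genes measured, 11 had a lower mean in homozygous pools and none passed. Their summed intensity was 7012 to 9588 in homozygous and 7664 to 10573 in control pools. None of the 14 was at the floor on all arrays, and the part of endothelium in the Podxl signal was not tested. The Podxl difference was -0.34 when the 3 Xist-high pools were left out (adjusted p = 0.808, limma). It was -0.64 when the arrays of high actin ratio were left out (adjusted p = 0.223, limma).

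Synpo encodes synaptopodin, an actin-associated protein of foot processes and of dendritic spines. Its bright probe set, 1434089_at, read 704, 452, 396, 449 and 185 in homozygous pools 1 to 5 and 322, 453, 763, 713 and 929 in control pools 1 to 5. The lowest value in each group was on the array with the high actin ratio. Mean log2 intensity was 8.65 ± 0.70 (SD, n = 5) against 9.21 ± 0.62 (SD, n = 5). The difference of -0.56 ± 0.40 (SE) did not pass (adjusted p = 0.556, limma; exact permutation p = 0.214). Its size hinged on few pools: it was -0.28 without homozygous pool 5, -0.78 without control pool 1 and -0.07 without the 3 Xist-high pools. A second probe set, 1427045_at, lay under the floor on all 10 arrays, so it gives no comparison. Neurons and muscle can also express genes of this family, and every measured gene of both lists had a higher mean in homozygous pools, of which 3 neuronal genes and no muscle gene rose, against 0.539% of all genes. Summed intensity was 19509 to 43679 against 2773 to 12552 for 15 neuronal and chromaffin genes, and 36483 to 73521 against 11803 to 44144 for 16 muscle genes. Their part in the Synpo signal was not tested.

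Clic5 encodes a chloride intracellular channel family protein that associates with ezrin, and it lies with podocalyxin at the apical membrane of foot processes. Its brightest probe set, 1439505_at, read 151, 288, 174, 184 and 226 in homozygous pools 1 to 5. In control pools 1 to 5 it read 638, 369, 500.3, 401 and 315. The groups did not overlap, although homozygous pool 2 and control pool 5 came close. Mean log2 intensity was 7.64 ± 0.36 (SD, n = 5) in homozygous and 8.75 ± 0.40 (SD, n = 5) in control pools. The difference of -1.11 ± 0.24 (SE) puts the homozygous level at 46.3% of control, with a 95% interval of 31.97% to 67.0%. Adjusted over all genes it missed the threshold (adjusted p = 0.0651, limma). The exact two-sided permutation p of 0.00794 is the smallest that 5 against 5 arrays can give.

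Of the other 3 Clic5 probe sets, 2 had a lower mean too, by smaller amounts. Probe set 1456873_at read 157, 192, 171, 172 and 299 in homozygous pools and 513, 305, 414, 273 and 324 in control pools. Only homozygous pool 5 reached into the control range, where it passed control pool 4. Its difference was -0.88 ± 0.22 (SE; adjusted p = 0.144 over all probe sets, limma). Probe set 1458381_at was dimmer, at 47.2 to 88.5 against 70.7 to 114, and differed by -0.44 ± 0.21 (SE; adjusted p = 0.462, limma). The last, 1431261_at, was under the floor on all arrays. Across all probe sets on the array, 1.51% had every homozygous value below every control value, and of the 4 for Clic5 this held for 1439505_at alone.

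The Clic5 difference was about as large on subsets of the arrays. It was -1.02 when the arrays of high actin ratio were dropped and -1.05 when the 3 Xist-high pools were, though with fewer arrays neither passed (adjusted p = 0.115 and 0.476, limma). It passed under 5 of 25 alternatives, among them array weights (adjusted p = 0.0317), a filter on dim genes (adjusted p = 0.0373) and the omission of homozygous pool 2 (adjusted p = 0.046). All 25 gave a lower homozygous level. As the groups did not overlap, leaving out or weighting arrays could not have reversed the direction. A change of variance model leaves the difference as it is. With the mean of its 4 probe sets in place of the brightest, the difference was -0.61. That mean includes 1431261_at, which the floor holds at no difference, so part of the decrease in size is built in.

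**Figure D2:**
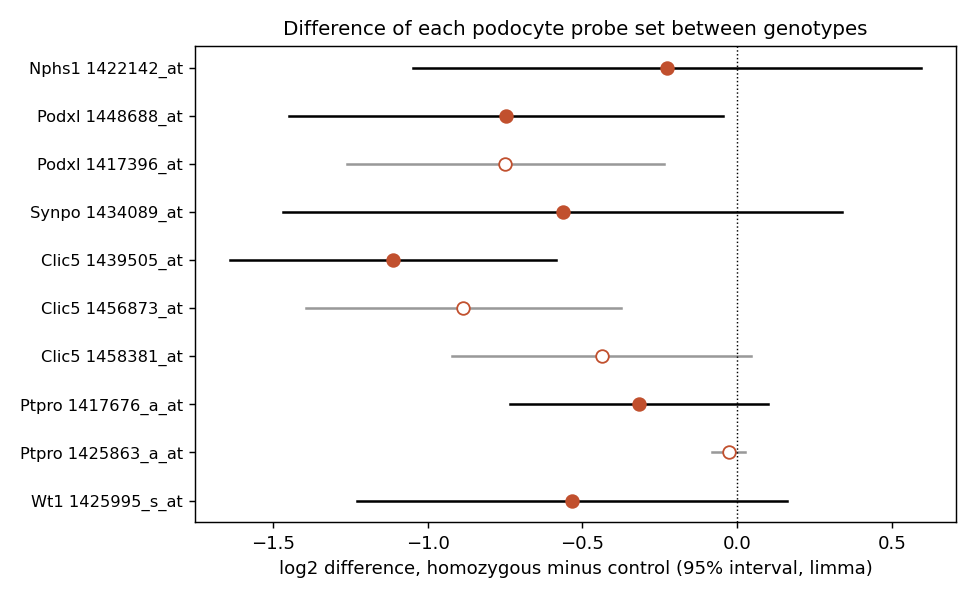
Each row is a probe set and the x axis is the log2 difference, homozygous minus control, with its 95% interval from the limma fit over probe sets; filled circles are the brightest probe set of a gene and open circles the others. Both probe sets that lay under the floor on every array are left out, and the intervals of 1439505_at and 1456873_at of Clic5 and of both Podxl probe sets do not reach 0 before adjustment over all probe sets; for Podxl 1417396_at this rests on the floor of 16.

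Ptpro encodes a receptor-type tyrosine phosphatase of the podocyte apical membrane, also known as GLEPP1, and is expressed in some neurons. Probe set 1417676_a_at read 589, 576, 768, 587 and 378 in homozygous pools 1 to 5 and 893, 692, 701, 683 and 585 in control pools 1 to 5. Homozygous pools 1, 2 and 4 sat together near the lowest control, pool 3 was above 4 of the controls, and pool 5 was far below all. Mean log2 intensity was 9.14 ± 0.37 (SD, n = 5) against 9.46 ± 0.22 (SD, n = 5). The difference of -0.32 ± 0.18 (SE) did not pass (adjusted p = 0.469, limma; exact permutation p = 0.127). Its extremes were the arrays with a high actin ratio, lowest in homozygous pool 5 and highest in control pool 1, and without both it was -0.085. The second probe set, 1425863_a_at, was at or under the floor on 7 of 10 arrays and never above 17.4.

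Wt1, the zinc finger regulator of the set, is made in nephron progenitors, gonadal supporting cells and mesothelium as well as in podocytes. Its probe set, 1425995_s_at, read 1822, 2157, 1388, 2248 and 936 in homozygous pools 1 to 5. Control pools 1 to 5 had 2404, 1302, 2975, 2862 and 2732. Of the controls, 4 were above every homozygous pool, and control pool 2 was below all but homozygous pool 5. Mean log2 intensity was 10.67 ± 0.52 (SD, n = 5) against 11.20 ± 0.49 (SD, n = 5). The difference of -0.53 ± 0.30 (SE), with a 95% interval of 42.9% to 111% of control, did not pass (adjusted p = 0.460, limma; exact permutation p = 0.143). It was -0.75 without control pool 2, -0.33 without homozygous pool 5 and -0.25 without the 3 Xist-high pools. Without the arrays of high actin ratio it was -0.33 as well, and none of these passed.

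The other tissues that make Wt1 did not move one way. Of 12 nephron progenitor genes measured, 11 had a lower mean in homozygous pools and none passed, and their summed intensity was 10770.5 to 14169 against 13718 to 26504. Uncx, a homeobox gene, differed by -1.41 (adjusted p = 0.0631, limma) and Crym, a thyroid hormone binding protein gene, by -0.86 (adjusted p = 0.0864, limma). Of 11 gonadal genes 10 had a higher mean and none passed, with summed intensities of 6237 to 24777 against 942 to 15133. This list includes Cyp11a1 and Hsd3b1, steroid synthesis genes that the adrenal gland also makes. Of 8 mesothelial genes 6 had a higher mean and none passed, at 5823 to 10170 against 7107 to 9143. Every homozygous array lay above every control array for 3 of the 8, against 2.61% of all genes. For 1, Aldh1a2, every homozygous array lay below, against 2.1% of all genes. Aldh1a2 differed by -0.49 (adjusted p = 0.0707, limma), and as the brightest of the 8 it weighs most in the sum. No gene of these 3 lists was at the floor on all arrays, and their part in the Wt1 signal was not tested.

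**Figure D3:**
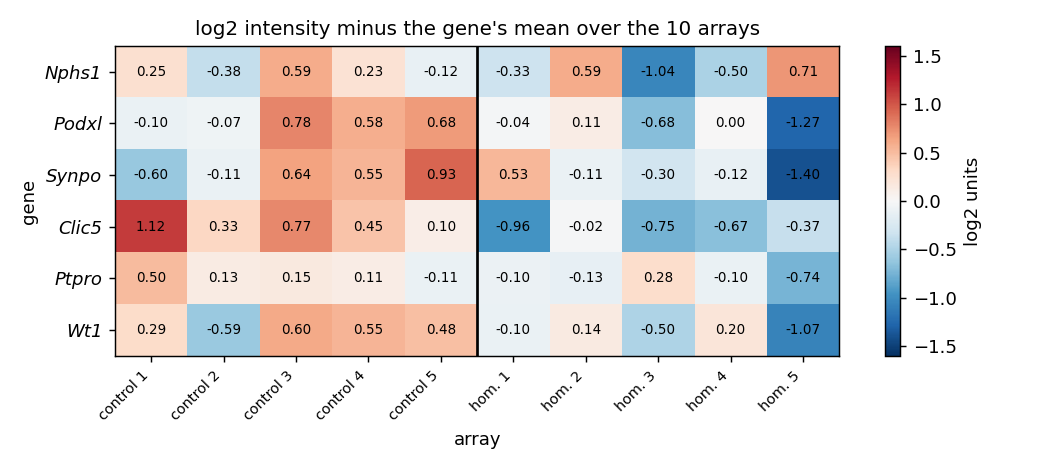
Each cell gives a gene's log2 intensity on one array minus that gene's mean over the 10 arrays, with control arrays left of the line and homozygous arrays right of it (red above the mean, blue below). Homozygous array 5 is at -1.27 for Podxl, -1.40 for Synpo and -1.07 for Wt1, but at 0.71 for Nphs1, and control array 1 is highest for Clic5 at 1.12.

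The 6 genes did not share one profile over the arrays. Likeness was taken as the root-mean-square distance between log2 profiles after each gene's mean was removed, so that 0 would be identical profiles. Podxl and Wt1 were closest, at 0.25, and Podxl and Synpo followed at 0.30. Nphs1 and Synpo were farthest apart, at 0.92, and Clic5 and Synpo next, at 0.87. Homozygous pool 5 was lowest of all 10 for 4 of the 6 genes (Podxl, Synpo, Ptpro and Wt1) and highest for Nphs1. These distances rest on 10 arrays that share scaling, genotype and RNA quality, and they are descriptions.

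Against the mean profiles of the lists, Wt1 and Podxl were nearest to nephron progenitor genes, at 0.26 and 0.31. Ptpro was nearest to the foot process list without itself, at 0.27, Synpo to basement membrane genes, at 0.45, and Nphs1 to the podocyte secreted factor list, at 0.44. Clic5 was nearest to the proximal tubule list, at 0.29, and then to the early nephron list, at 0.37. The profiles contain the genotype difference, so a gene with a lower homozygous level tends to lie near lists that are lower too. The proximal tubule list separated the genotypes by itself. Its summed intensity was 3447 to 5302 in homozygous and 8365 to 12487 in control pools, and 6 of its 18 genes fell, against 0.429% of all genes, with a median log2 difference of -1.22. Among these, Hnf4a, a transcription factor of tubule cells, fell by 1.51 (adjusted p = 0.0295, limma) and Cubn, an endocytic receptor gene, fell by 1.45 (adjusted p = 0.0364, limma). None of the 18 was at the floor on all arrays, and whether tubule cells contribute to the Clic5 signal was not tested.

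For the 3 genes with the largest SD over the arrays, the 3 nearest of 9115 brighter genes (mean log2 of at least 8) were found. Those of Clic5 were Aspa, an aspartoacylase gene, at 0.20, Cideb, a lipid droplet protein gene, at 0.21, and Npb, a neuropeptide gene, at 0.22, where the median distance was 0.70. Aspa fell by 1.16 on the log2 scale (adjusted p = 0.0454, limma), while Cideb and Npb did not pass. The nearest genes were chosen on profiles that contain the genotype difference. A difference like that of Clic5 was thus built into the choice and is not a separate result. Those of Podxl were Rcc2, Slc37a4 and Ubtf, at 0.15 to 0.16, and those of Synpo were Ranbp1, Yrdc and Lap3, each at 0.15. Rcc2 and Ranbp1 encode proteins of the Ran and chromatin machinery and Ubtf a factor for ribosomal RNA transcription. None of these 6 passed.

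Other podocyte genes were taken from 5 lists. Leaving out the 6 genes above, 88 were measured, of which 52 (59.1%) had a lower mean in homozygous pools, against 46.1% of all genes. The median log2 difference was -0.13, against 0.00 for all genes. Of the 88, 1 fell and none rose in limma, against 0.429% and 0.539% of all genes. An unadjusted p under 0.05 was found for 23 of the 88, a larger share than the 15.7% of all genes. These 23 held both lower and higher genes. The lists were chosen with earlier results of these data known, so the shares are descriptions. Every homozygous array lay below every control array for 4 of the 88 and above for 2, against 2.1% and 2.61% of all genes.

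**Figure D4:**
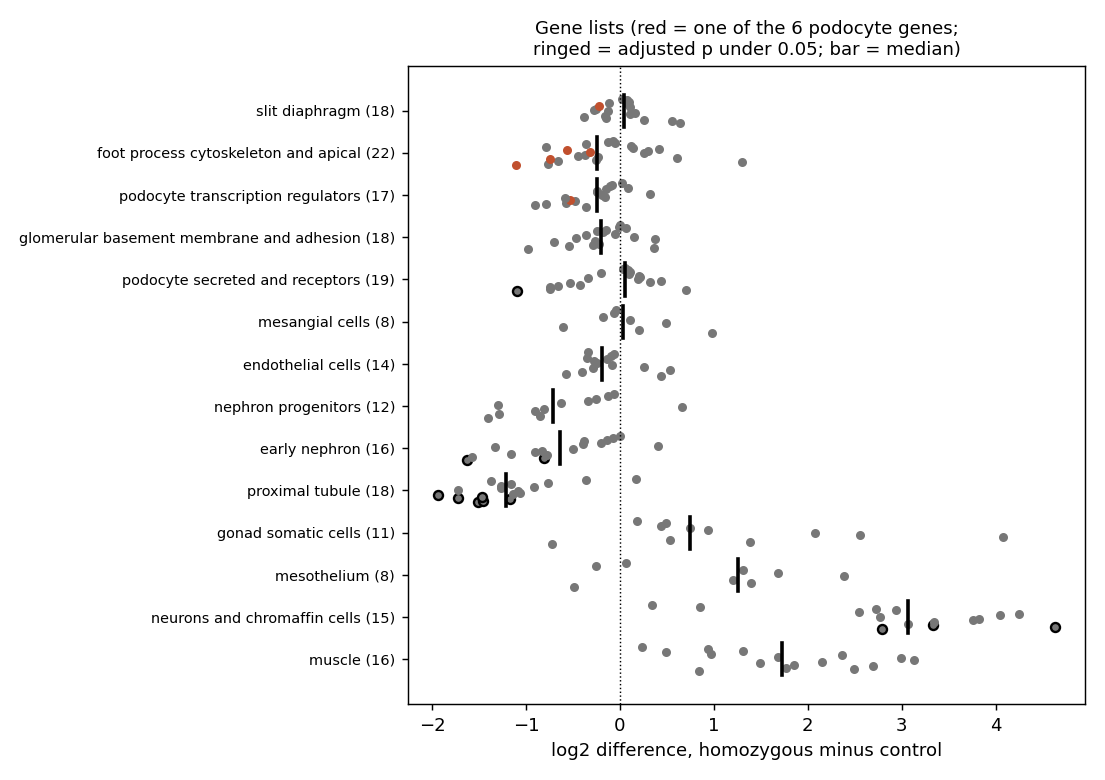
Each point is a gene placed by its log2 difference, homozygous minus control, within 14 lists with the number measured in brackets; the bar is the list's median, red marks the 6 genes and a ring an adjusted p under 0.05. The podocyte lists centre between -0.25 and 0.05, while the nephron progenitor, early nephron and proximal tubule lists centre at -0.72, -0.64 and -1.22.

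The slit diaphragm list had a median of 0.05 over 18 genes, and none passed. Kirrel3, a nephrin relative, differed by 0.64 ± 0.23 (SE; adjusted p = 0.21, limma), and Trpc6, a cation channel of the junction, by 0.55 ± 0.22 (SE; adjusted p = 0.273, limma). Trpc6 was near the floor, with a mean log2 intensity of 5.38 in homozygous and 4.83 in control pools. Its homozygous arrays all lay above its control arrays, as did 2.61% of all genes. Kirrel, the gene of the nephrin-binding protein Neph1, differed by 0.10, Cd2ap, an adaptor that ties nephrin to actin, by -0.16, and Tjp1, which encodes the scaffold ZO-1, by -0.12. These last 3 were named for their roles after their values were seen, and none passed.

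The list of foot process cytoskeleton and apical genes had a median of -0.25 over 22 genes, and none passed. Beside Clic5, its lowest p belonged to Ezr, which encodes ezrin, the linker that binds podocalyxin complexes and Clic5 to actin. Ezr differed by -0.77 ± 0.20 (SE; adjusted p = 0.0987, limma), from 11.42 to 10.65, and every homozygous array was below every control array. Clic5 and Ezr were the only 2 of the 22 to separate in this direction, as did 2.1% of all genes. Ezrin is present in the brush border of tubule cells as well, and which cells carried the difference was not tested.

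Podocyte transcription regulators had a median of -0.24 over 17 genes, of which 14 had a lower mean and none passed. Hey1, a Notch target, differed by -0.36 ± 0.12 (SE; adjusted p = 0.185, limma) and Lmx1b, a LIM homeobox gene needed for foot processes, by -0.91 ± 0.32 (SE; adjusted p = 0.207, limma). Foxc2 differed by -0.58, Foxc1 by -0.48 and Tcf21 by -0.15, all named after their values were seen and none past the threshold.

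Basement membrane and adhesion genes had a median of -0.21 over 18 genes, and none passed. Lama1, a laminin chain of the immature basement membrane, differed by -0.98 ± 0.31 (SE; adjusted p = 0.169, limma) and Nid1, which encodes nidogen, by 0.36 ± 0.14 (SE; adjusted p = 0.234, limma). The median of this list was 0.08 without the 3 Xist-high pools. Secreted factors and receptors had a median of 0.05 over 19 genes. Dpp4, a membrane peptidase also found on proximal tubule cells, had a log2 difference of -1.09 ± 0.18 (SE; adjusted p = 0.0374, limma), from 10.85 to 9.76, and was the only podocyte list gene past the threshold. Cxcl12, a chemokine, differed by 0.70 ± 0.14 (SE; adjusted p = 0.0558, limma). When either the Xist-high pools or the arrays of high actin ratio were dropped, no podocyte list gene passed, Dpp4 included.

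Mesangial genes, from the cells that hold the capillary loops together, had a median of 0.03 over 8 genes, and none passed. Rgs5, a pericyte signalling regulator, differed by 0.98 (adjusted p = 0.0558, limma). Their summed intensity was 20932 to 27945 in homozygous and 19884 to 23802 in control pools.

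**Figure D5:**
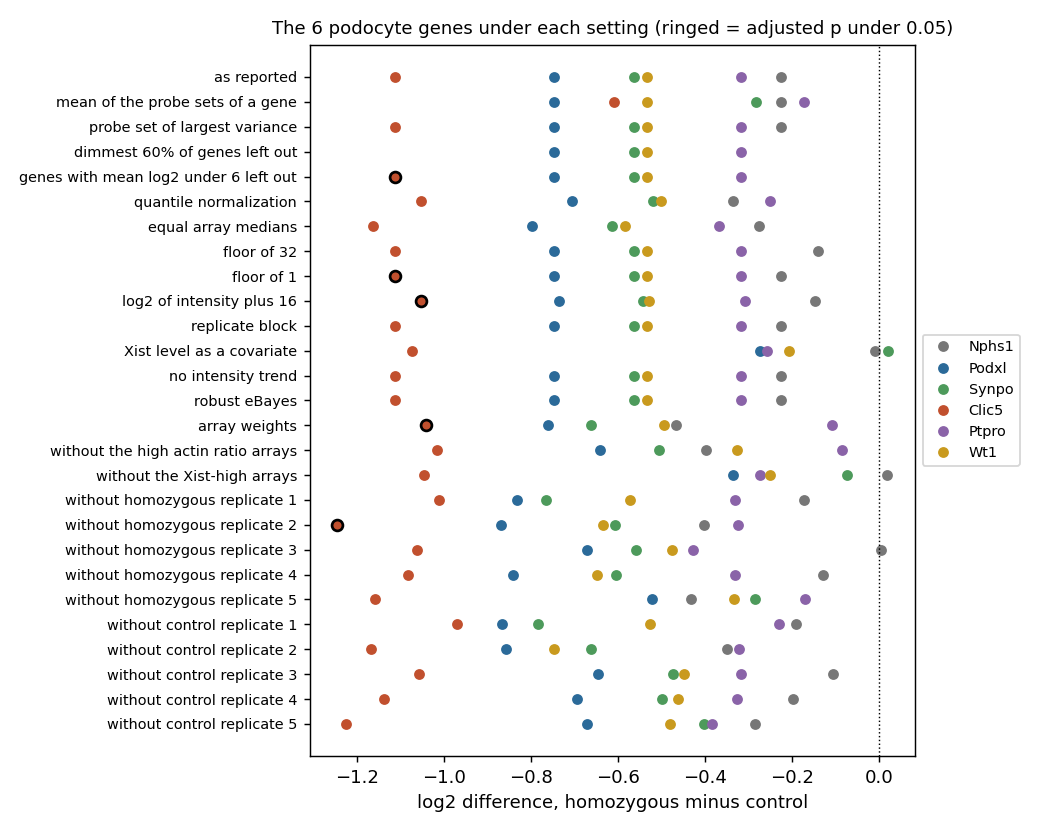
The log2 difference of each of the 6 genes is plotted for the reported fit and 26 alternatives, with a ring where adjusted p was under 0.05. Clic5 stays between -1.24 and -0.61 and is ringed 5 times, while Synpo and Nphs1 reach 0.02 when Xist enters the fit or the Xist-high arrays are left out, respectively. The -0.61 comes from averaging the Clic5 probe sets, of which 1431261_at lay under the floor on every array.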

How the data were processed

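The authors deposited linear intensity values, 1 for each probe set on an array, scaled to a common trimmed mean. How probes were summarized is not given in the sources used here. The series design text describes another tissue and allele, so groups follow the sample titles. No 2 arrays held identical values. From these intensities, values under 16 were set to 16 and log2 was taken. Each of 18193 genes was represented by its probe set of highest mean, and 64 control probe sets were left out. Names came from the platform annotation: 34945 probe sets had 1 symbol, 932 several and 9160 none.

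The test of homozygous against control arrays was run in R 4.3.3 with limma 3.58.1, once over genes and once over 45037 probe sets. It used lmFit and eBayes, with the variance allowed to follow intensity. P-values were two-sided and adjusted by the Benjamini-Hochberg method. The procedure was tested on simulated data of 5 against 5 arrays. Of 100 genes changed by 1 on the log2 scale it recovered 52, so a change of this size could be missed. Of 100 genes changed by 2 it recovered 77. Among its 142 calls, 13 were false. The simulated noise was independent between genes and arrays, with no floor and no effect shared within an array. Rates on the real arrays may therefore differ. The labels call the replicates distinct RNA pools, and p-values therefore cover only the variation among pools. Exact permutation tests used 252 splits of the arrays. The members and lists were chosen with earlier results of these data known. Of 14 lists with 225 entries, 212 entries were measured. Named beside the 7 genes are, per podocyte list, genes past the threshold or the 2 of smallest p, per other list at most 2 of smallest p, and the nearest profiles; 8 others (Kirrel, Cd2ap, Tjp1, Foxc1, Foxc2, Tcf21, Cyp11a1 and Hsd3b1) were named for their roles after their values were seen. Alternatives changed the probe set per gene, filter, scaling, floor, variance model, covariates or arrays used. Distances to list profiles, and Clic5 relative to the other genes, were chosen after the values were seen.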

Additional observations from a re-analysis of the deposited data

Results flagged for a closer look

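Of 16 groups of 5 values checked for a single distant array, 1 stood out: Wt1 in control pool 2, at an intensity of 1302, against 2404 to 2975 in the other 4 controls. Chance flags about 1 in 20 such groups. Without this pool the Wt1 difference was -0.75 (adjusted p = 0.195, limma). The same pool was also the lowest control for Nphs1.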

How the results depend on the processing

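Podxl, Ptpro and Wt1 kept a lower homozygous mean and no call under all 26 alternatives. Nphs1 turned to 0.018 without the Xist-high arrays and ran from -0.43 to 0.0049 when single arrays were left out, the latter without homozygous pool 3. Synpo turned to 0.020 with the Xist level as a covariate. Clic5 passed at -1.11 with genes of mean log2 under 6 left out, at -1.11 with a floor of 1 (adjusted p = 0.0476, limma), at -1.05 on log2 of intensity plus 16 (adjusted p = 0.0473, limma) and at -1.04 with array weights. With single arrays left out Clic5 ran from -1.24 to -0.97, and its adjusted p over all alternatives ran from 0.0317 to 0.476 (limma). Clic5 probe set 1456873_at passed at -0.93 with array weights. Clic5 and Nphs1 have no value with the dimmest 60% of genes left out, nor has Nphs1 with mean log2 under 6 left out. The probe sets under the floor on all arrays were not run.

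The count of all genes past the threshold, 176 as reported, was 109 with the mean of a gene's probe sets, 93 with the probe set of largest variance, 108 without the dimmest 60% of genes, 325 without genes of mean log2 under 6, 94 with a floor of 32, 302 on log2 of intensity plus 16, 13 with the Xist covariate, 951 with array weights, 23 without the high actin ratio arrays, 28 without the Xist-high arrays, and 3 to 414 with single arrays left out. It was 3 without homozygous pool 3 or control pool 3 and 414 without control pool 2. The podocyte list count, 1 as reported, was 2 without the dimmest genes and with robust eBayes, 3 with the log2 filter, the floor of 1 or the added 16, 7 with array weights, 0 with the Xist covariate or without either set of arrays, and 0 to 4 with single arrays left out.

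Replicate numbers are shared between genotypes. With the replicate block, 1 gene and 0 podocyte list genes passed, and Clic5 had an adjusted p of 0.368 (limma). Deviations of same-numbered arrays correlated at -0.55 to -0.17, and none of the 5 homozygous arrays was most like the control of its own number, so the numbers were not taken as pairs. The block changed no call of the 6 genes.

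List medians also moved. The slit diaphragm median was -0.099 with the mean of probe sets, -0.13 with the probe set of largest variance, -0.049 with the Xist covariate, -0.070 without the Xist-high arrays and -0.075 to 0.10 with single arrays left out. The foot process median was -0.48 with largest variance, -0.071 without the dimmest genes, -0.17 with the Xist covariate, -0.16 with array weights, -0.14 without the high actin ratio arrays, -0.16 without the Xist-high arrays and -0.27 to -0.15 with single arrays left out. The basement membrane median was 0.087 with the Xist covariate and 0.075 without the Xist-high arrays. The secreted factor median ran from -0.11 to 0.10 with single arrays left out. The mesangial median was -0.12 with largest variance, the progenitor median -0.41 and -0.39 with the Xist covariate and without the Xist-high arrays, and the gonadal and mesothelial medians 2.51 and 0.60 without the dimmest genes. The cause was not tested.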

Other observations

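Clic5 was set against each of the other 5 genes within arrays, after its values had been seen. The log2 ratio of Clic5 to Nphs1 was lower in homozygous pools by -0.89, that to Ptpro by -0.80, that to Wt1 by -0.58, that to Synpo by -0.55 and that to Podxl by -0.36. The exact two-sided permutation p was 0.0317 against Nphs1, 0.0397 against Ptpro, 0.151 against Wt1, 0.381 against Synpo and 0.421 against Podxl. Adjusted over these 5 comparisons by the Benjamini-Hochberg method, the lowest exact permutation p became 0.0992, so no ratio passed, and each overlapped between genotypes.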
